A study of Mus musculus with 10 samples.

Results

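The 37 genes described here are enzymes of glycolysis, carriers of glucose and lactate, and target genes of the hypoxia response. They were taken by gene symbol from the 24538 genes that were counted, by a list made with earlier results of these data known. RNA was sequenced from CD31-positive, CD45-negative cells of 5 samples of lung metastases and 5 samples of normal lung of mice. Endothelial cells carry CD31 at their junctions and leukocytes carry CD45, so the gate is meant to hold lung endothelium. The metastases grew from the mouse mammary tumour line E0771-LG, given through the tail vein to syngeneic C57BL6/J females of 6 to 8 weeks. Nodules smaller than 1 mm were dissected, and a metastasis sample pooled tissue of 2 to 4 mice. Normal lungs were handled side by side with them. All mice were wild type and 8 to 10 weeks old by their labels. All lungs were perfused and digested for 30 min with alpha-amanitin and actinomycin D, inhibitors of transcription, in the buffer.

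Glycolysis splits glucose into pyruvate in the cytosol. Glucose transporters admit the sugar, hexokinases trap it as a phosphate, phosphofructokinase commits it to the pathway, and the lower enzymes recover ATP. Lactate dehydrogenase turns pyruvate into lactate and restores NAD+, and monocarboxylate transporters carry lactate and a proton across the membrane. Many of these genes are known targets of hypoxia-inducible factor (HIF), a transcription factor that is stable when oxygen is low. Endothelial cells are known to make most of their ATP by glycolysis, and vessel sprouting depends on it.

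Gene counts summed to between 21.7 and 54.3 M in metastases and between 41.0 and 79.7 M in normal lung. The share of alignments assigned to genes was 14.6 to 28.2% in metastases and 24.3 to 34.4% in normal lung. Alignments that fell in no counted feature made up 57.9 to 73.7% in metastases and 55.4 to 64.7% in normal lung. Where in the genome these lay was not examined. The part of this in the differences between the groups was not tested. Marker genes of several cell types differed between the groups. The level of 19 pan-endothelial genes was 35.2, 22.2, 16.8, 8.66 and 6.26% of the normal mean in metastasis replicates 1 to 5, and 16 of the 19 genes were lower in metastases. Summed over each marker list, CPM (counts scaled by library size) ranged from 349 to 917 in metastases and from 6.29 to 78.7 in normal lung for fibroblast genes, of which 5 of 6 tested were called higher. Macrophage genes summed to 281 to 1420 in metastases and to 42.2 to 208 in normal lung, with 3 of 6 called higher. The sums of both lists were higher in every metastasis library than in any normal one. Neutrophil genes gave 40.6 to 79.2 CPM in metastases and 0.367 to 2.45 in normal lung, with 3 of 3 called higher and Mpo at 0 in every library. Genes of tumour and other epithelium gave 10.4 to 53.6 CPM in metastases and 1.11 to 13.4 in normal lung, with Krt8 called higher, 1 of 2 tested, and Cldn3 and Cldn4 at 0 in all metastases. Platelet genes gave 731 to 12800 CPM in metastases and 192 to 1030 in normal lung, with 3 of 6 called higher. Within these lists too, the metastasis range lay above the normal range or overlapped its upper end. Proliferation genes gave 1770 to 3140 CPM in metastases and 69.9 to 178 in normal lung, and 10 of 12 were called higher. Of 7 red cell genes, 5 had no count in any library, although the deposited FPKM of Hba-a1 reached 20.1 in metastases and 9.21 in normal lung. Of 5 tested genes of lung alveolar epithelium 2 were lower, with sums of 25.8 to 185 CPM in metastases and 96.6 to 859 in normal lung. Of 5 tested pericyte and smooth muscle genes 1, Rgs5, was lower, with sums of 12.7 to 101 CPM in metastases and 11.8 to 58.3 in normal lung. For these counts, the shares over all tested genes were 12.0% higher and 8.22% lower. The part of these lists in the members' differences was not tested. In a bulk sample, fewer cells of a type and less RNA per cell cannot be told apart.

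Of the 37 members, 30 had enough counts to be tested, and 10 were higher in metastases. These were both glucose transporters (Slc2a1, Slc2a3), Hk2, Aldoa, Tpi1, Pgk1, Ldha, both lactate carriers (Slc16a1, Slc16a3) and Ndrg1. No member was called lower by edgeR's quasi-likelihood test at an adjusted p under 0.05, while 13 were higher and 1, Pfkfb2, was lower at an unadjusted p under 0.05. The share of all genes at an unadjusted p was not counted. DESeq2 called 11 members higher and 1, again Pfkfb2, lower. Of all tested genes it called 1880 higher (15.9%) and 1322 lower. Over all 11823 tested genes 20.2% were called, 12.0% higher and 8.22% lower in metastases. The CPM of the groups did not overlap for 9 of the 30 members and for 14.7% of all tested genes. The median log2 fold change, metastases minus normal lung, was 1.40 over the tested members and 0.06 over all tested genes. The calls were not spread evenly over roles: 9 of the 20 tested genes of glycolysis and lactate transport were called and 1 of the 10 tested hypoxia targets. No test was made of that difference in share.

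These directions hold against the bulk of genes after TMM scaling. With plain library totals the median log2 fold change over all genes was 0.25 greater, and the same 10 members were called. There 14.6% of all tested genes were called higher. Scaling to the pan-endothelial genes raised the median by 2.80, and 28 members were then called higher, as were 61.6% of all tested genes. When metastasis replicates 4 and 5, whose pan-endothelial level was the lowest, were left out, 9 members were called higher, and Aldoa was the call that was lost (1.81, adjusted p = 0.0713). In that fit 9.08% of all tested genes were called higher. Libraries 1 and 2 of each group were set apart from libraries 3 to 5 in earlier work on these data. Libraries 1 and 2 alone gave 6 members higher and libraries 3 to 5 alone gave 11, on fewer samples. Of all genes tested, libraries 1 and 2 alone gave 3.87% higher and libraries 3 to 5 alone 9.29%.

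**Figure D1:**
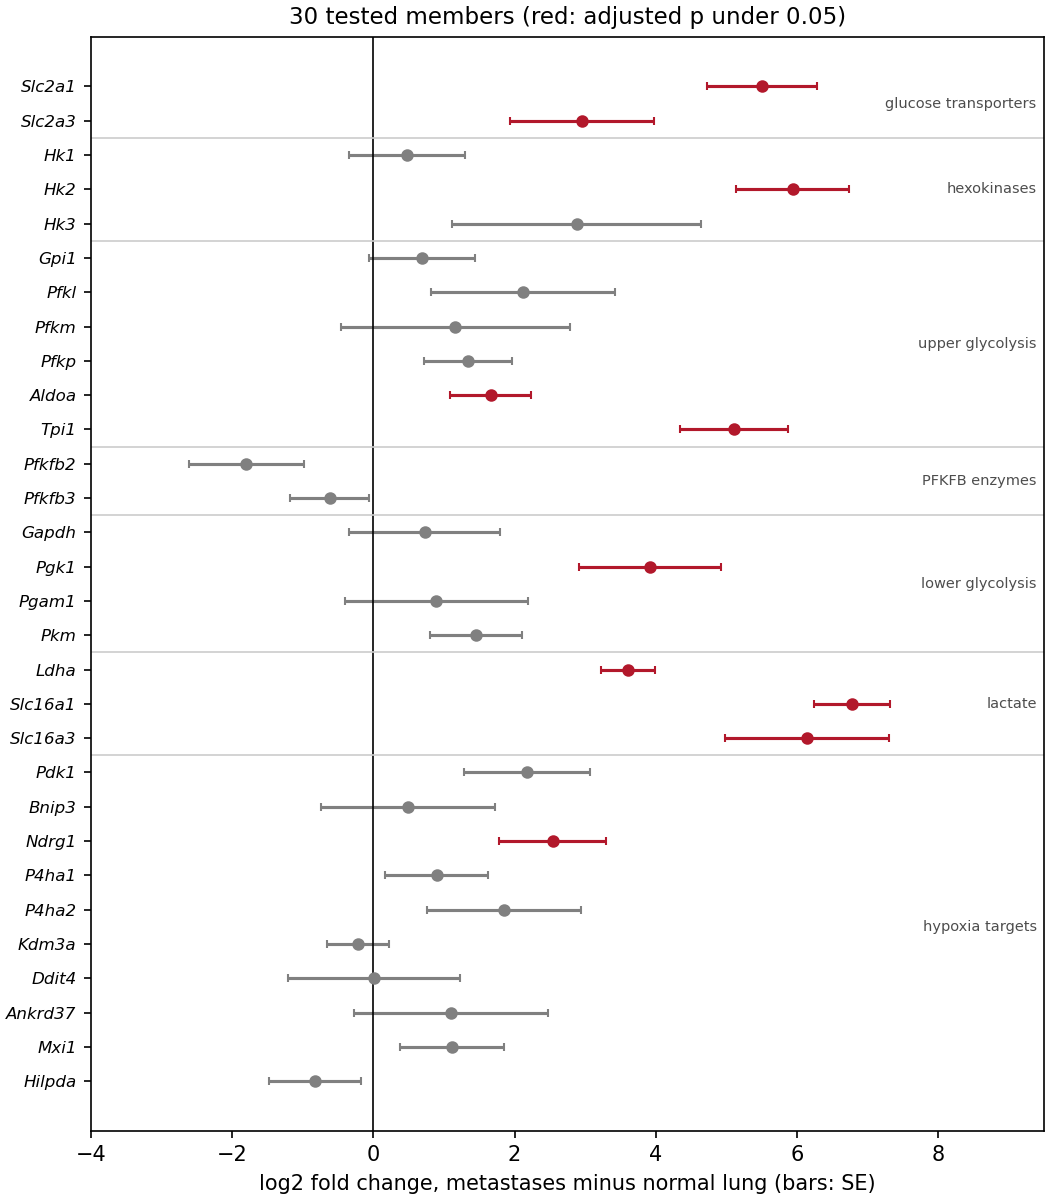
Log2 fold change, metastases minus normal lung, of the 30 tested members (x axis), in order of their role; points are edgeR estimates, bars the standard error, and red marks an adjusted p under 0.05 (n = 5 libraries per group). Slc16a1 at 6.78, Slc16a3 at 6.14 and Hk2 at 5.94 lie farthest to the right, and Pfkfb2 at -1.80 farthest to the left.

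The start regions of the 4 members with the largest rises and of Ldha, the most abundant member in metastases, are shown. They were chosen because these genes were higher in metastases and because a short motif recurs in them. Its recurrence in the windows shown is thus in part a result of the choice. Tpi1, with the next largest rise (log2 5.11), had no match and is not shown. The sequences are from RefSeq (GRCm38.p6) and run from 250 bases before to 50 after the start of transcription, 5′ to 3′ on the gene's strand. They lie at chr3:104638414-104638713 (plus strand) for Slc16a1, chr11:120948817-120949116 (plus) for Slc16a3 and chr6:82774405-82774704 (minus) for Hk2. Those of Slc2a1 and Ldha lie at chr4:119108495-119108794 (plus) and chr7:46845554-46845853 (plus). Capitals mark ACGTG on either strand, the core of the element that HIF is known to bind. The E-box CACGTG, bound by Myc and its relatives, holds that core on both strands and was counted as 2 matches.
Slc16a1: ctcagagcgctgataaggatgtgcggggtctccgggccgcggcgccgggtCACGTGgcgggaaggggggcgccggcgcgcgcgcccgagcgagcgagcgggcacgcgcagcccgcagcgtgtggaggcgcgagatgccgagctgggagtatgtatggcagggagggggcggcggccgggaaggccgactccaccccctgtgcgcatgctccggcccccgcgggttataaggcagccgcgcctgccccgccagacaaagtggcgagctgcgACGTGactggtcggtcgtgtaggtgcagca
Slc16a3: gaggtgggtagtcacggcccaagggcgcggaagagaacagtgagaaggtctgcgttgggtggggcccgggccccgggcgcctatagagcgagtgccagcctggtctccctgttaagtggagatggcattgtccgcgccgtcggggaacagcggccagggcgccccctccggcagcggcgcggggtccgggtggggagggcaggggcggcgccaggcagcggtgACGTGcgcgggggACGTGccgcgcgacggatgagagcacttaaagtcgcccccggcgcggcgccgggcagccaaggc
Hk2: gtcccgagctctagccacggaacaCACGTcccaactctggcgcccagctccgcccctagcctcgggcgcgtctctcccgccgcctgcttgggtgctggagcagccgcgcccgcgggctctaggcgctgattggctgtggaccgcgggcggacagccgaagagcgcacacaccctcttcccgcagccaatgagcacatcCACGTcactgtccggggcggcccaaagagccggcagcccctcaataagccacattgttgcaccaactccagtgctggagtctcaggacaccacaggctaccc
Slc2a1: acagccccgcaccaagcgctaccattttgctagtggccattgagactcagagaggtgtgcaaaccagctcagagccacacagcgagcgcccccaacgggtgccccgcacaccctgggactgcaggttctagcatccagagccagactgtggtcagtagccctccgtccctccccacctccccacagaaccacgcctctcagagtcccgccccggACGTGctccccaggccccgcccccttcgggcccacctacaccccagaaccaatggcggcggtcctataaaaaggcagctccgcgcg
Ldha: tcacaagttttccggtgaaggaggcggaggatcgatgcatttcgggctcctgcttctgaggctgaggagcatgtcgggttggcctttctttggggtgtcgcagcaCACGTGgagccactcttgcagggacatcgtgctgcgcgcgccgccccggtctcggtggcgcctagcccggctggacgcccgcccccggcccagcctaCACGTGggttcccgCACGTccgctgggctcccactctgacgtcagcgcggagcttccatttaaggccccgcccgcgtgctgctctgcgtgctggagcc
The core stood 3 times in the Slc16a1 window, of which 2 were a CACGTG, and 5 times in the Ldha window shown, of which 4 were in its 2 CACGTG. The other Ldha window in the table, at chr7:46846832-46847131, held none. It stood 2 times in each of the Slc16a3 and Hk2 windows and 1 time in that of Slc2a1. Across the list, 35 members had a window in the table and 24 of them (68.6%) held the core in at least 1 window, against 5886 of 27025 genes (21.8%). Of all windows counted singly, which is another unit, 6447 of 32851 (19.6%) held it. Many members were listed as known HIF targets, so the list itself favours a larger share than among all genes. A gene with more windows also has more chances of a match, and window numbers were not matched. It was found for 7 of the 8 called members with a window (87.5%) and for 15 of the 20 tested members that were not called (75.0%). Tpi1 was the called member without it, and Pfkl, Pfkp, Gpi1, Pdk1 and Kdm3a, which were not called, also lacked it. A match is a run of letters and was not tested as a site, and base composition of the windows was not compared.

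Both glucose transporters were higher in metastases. Slc2a1 (chromosome 4, 119108711 to 119137983, plus strand, GRCm38), which encodes GLUT1, the transporter of basal glucose uptake, had 63.5, 253, 24.9, 106 and 93.6 CPM in metastasis replicates 1 to 5, against 1.19, 1.66, 2.82, 1.85 and 4.35 CPM in normal lung replicates 1 to 5. The lowest metastasis library lay well above the highest normal library. The fold change was 45.6 (log2 5.51 ± 0.78 SE, adjusted p = 2.57e-05). Slc2a3, which encodes the high-affinity transporter GLUT3, had 176, 190, 37.6, 8.56 and 7.65 CPM in metastases, against 1.78, 32.9, 1.51, 1.25 and 16.8 CPM in normal lung. Metastasis replicates 4 and 5 lay within the normal range, so the groups overlapped. Its fold change of 7.73 (log2 2.95 ± 1.02, adjusted p = 0.0428) was near the threshold. The call was lost without metastasis replicate 1 or 2 (adjusted p = 0.112 and 0.132) and without normal replicate 1, 3, 4 or 5 (0.0994, 0.0923, 0.0897 and 0.0601). Libraries 3 to 5 alone gave 1.44 (0.51). The log2 ratio of Slc2a3 to Slc2a1 within a library averaged 2.19 less in metastases, which an exact permutation test did not call (two-sided p = 0.19, adjusted 0.381 over 8 isoform pairs).

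Among the hexokinases, Hk2 was the most abundant transcript per length in 4 of 5 metastasis libraries and Hk1 in all 5 normal ones. Hk2 (chromosome 6, 82725025 to 82774454, minus strand), the inducible form that docks on mitochondria, had 68.8, 129, 74.5, 61.9 and 94.3 CPM in metastases, against 1.09, 0.789, 0.753, 1.12 and 3.24 CPM in normal lung. All metastasis libraries lay above all normal ones, at 61.3-fold on average (log2 5.94 ± 0.80, adjusted p = 1.19e-05). Hk1, the constitutive form, had 37.3, 79.7, 2.63, 14.4 and 31.2 CPM in metastases, against 11.4, 35.6, 13.2, 20.7 and 37.6 CPM in normal lung. The groups overlapped over most of their range (0.48 ± 0.82, adjusted p = 0.74). Hk3, a form known from myeloid cells, had 27.5 CPM in metastasis replicate 1 and 0.0353 to 2.73 in the others, against 4.0 CPM in normal lung replicate 1 and 0.0261 to 0.0956 in the others. Its change of 2.88 ± 1.76 was not called (adjusted p = 0.279). Without metastasis replicate 1 it was 0.06 (adjusted p = 0.988). Without normal lung replicate 1 it was 6.70 (adjusted p = 0.0292), and the deposited FPKM of that library was 0.0329.

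On the FPKM scale, which is per transcript length, Hk2 made up a median of 64.8% of the hexokinase sum in metastases (33.6 to 85.6%) and 4.32% in normal lung (1.91 to 12.8%). Hk1 made up 27.9% in metastases (4.33 to 46.3%) and 94.7% in normal lung (86.7 to 98.0%). In metastasis replicate 1, Hk3 held 38.7%, the highest share of the family there. The log2 count ratio of Hk2 to Hk1 was 0.88, 0.69, 4.81, 2.1 and 1.6 in metastases, against -3.39, -5.48, -4.11, -4.19 and -3.53 in normal lung. The ratio was positive in every metastasis library and negative in every normal one. The mean difference was 6.16, with an exact permutation p of 0.00794, the smallest that 5 against 5 can give, and 0.0635 after adjustment over the 8 isoform pairs tested, so that a lone pair could not pass 0.05. It was 5.22 over libraries 1 and 2 and 6.78 over libraries 3 to 5. Without metastasis replicate 1, where the Pfkm to Pfkl pair reached the smallest p too, the difference was 6.44 and the adjusted exact permutation p was 0.0317.

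**Figure D2:**
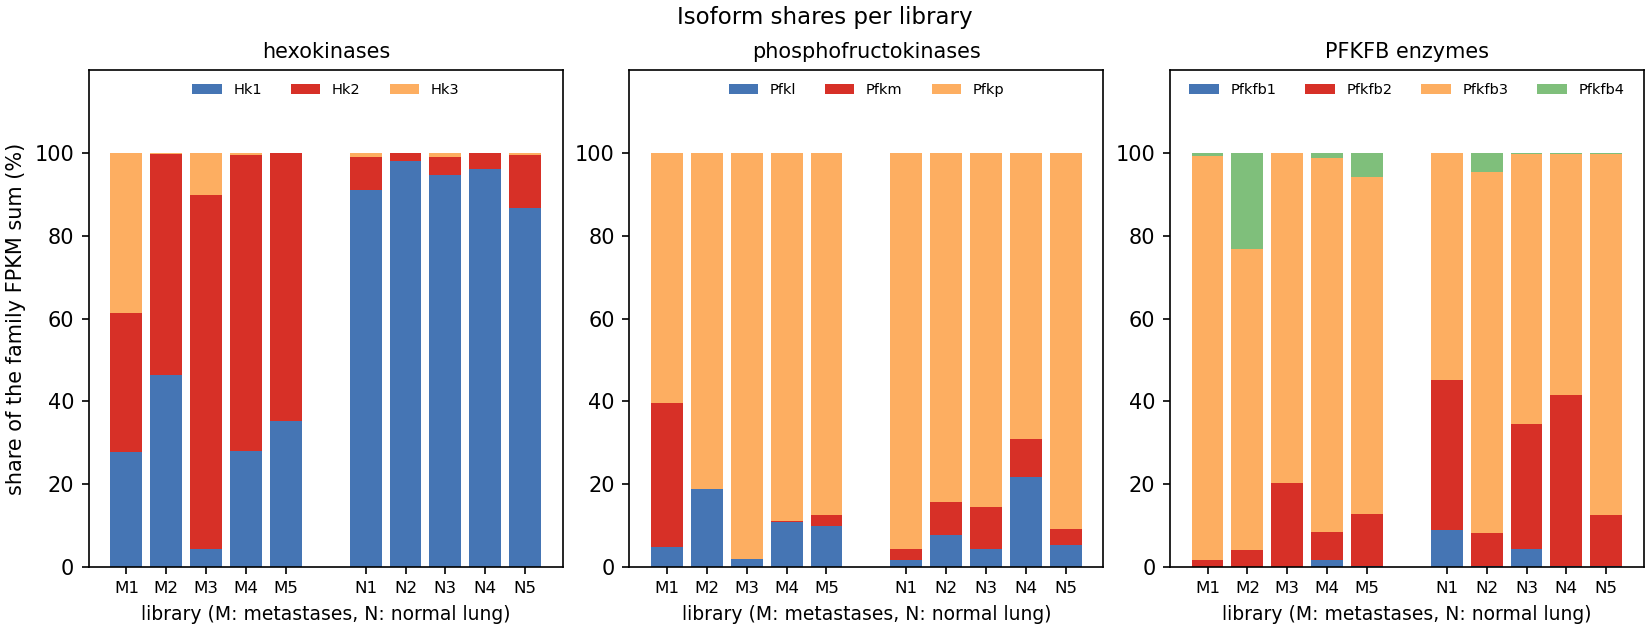
Share of each isoform in the FPKM sum of its family (y axis, %), per library (M metastases, N normal lung). Hk2 holds a median of 64.8% of the hexokinase sum in metastases and 4.32% in normal lung, while Pfkp and Pfkfb3 lead their families in all 10 libraries.

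Of the enzymes from glucose 6-phosphate to the trioses, Tpi1 and Aldoa were higher. Tpi1 (chromosome 6, 124810586 to 124814296, minus strand), triosephosphate isomerase, had 39.8, 185, 144, 82.4 and 111 CPM in metastases, against 1.82, 2.12, 2.09, 8.71 and 1.51 CPM in normal lung. Its lowest metastasis library lay above its highest normal library, and the fold change was 34.6 (log2 5.11 ± 0.76, adjusted p = 4.42e-05). Aldoa (chromosome 7, 126795234 to 126800751, minus strand), the aldolase of most tissues, had 167, 251, 86.8, 117 and 126 CPM in metastases, against 112, 46.2, 12.4, 33.4 and 31.9 CPM in normal lung. Normal lung replicate 1 lay within the metastasis range, and the change was 3.16-fold (log2 1.66 ± 0.57, adjusted p = 0.0396). The Aldoa call was lost without metastasis replicate 1, 2 or 5 (adjusted p = 0.058, 0.102 and 0.0509) or normal replicate 2, 3, 4 or 5 (0.0757, 0.0989, 0.0934 and 0.0941). Within libraries 1 and 2 alone it was 1.42 (0.301). Aldoc, the aldolase known from brain, had too few counts to be tested: 21.8 CPM in metastasis replicate 3 and 7.15 in replicate 2, 0.0353 to 0.406 in the other 3 metastasis libraries, and 0.0153 to 0.156 CPM in normal lung. Aldoa held 91.8 to 100% of the aldolase FPKM in metastases and 99.9 to 100% in normal lung.

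Gpi1, glucose phosphate isomerase, and the phosphofructokinase genes were not called. Gpi1 had 11.3 to 101 CPM in metastases and 11.3 to 92.8 CPM in normal lung (0.69 ± 0.75, adjusted p = 0.583). Of the phosphofructokinase subunits, Pfkp had 63.1, 99.8, 92.9, 121 and 134 CPM in metastases, against 97.3, 52.9, 18.1, 24.9 and 8.13 CPM in normal lung. Only normal lung replicate 1 reached the metastasis range (1.34 ± 0.62, adjusted p = 0.139), and without it Pfkp was called at 1.94 (adjusted p = 0.041). Pfkp led the family in all 10 libraries, with a median of 87.6% of its FPKM sum in metastases (60.3 to 98.1%) and 85.5% in normal lung (69.1 to 95.7%). Pfkl had 0.893 to 16.1 CPM in metastases and 0.135 to 5.27 CPM in normal lung (2.12 ± 1.31, adjusted p = 0.281).

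Pfkm, the muscle subunit, was the least even of them. It had 19.0, 0.0153, 0, 0.0871 and 2.04 CPM in metastases, against 1.59, 5.13, 1.62, 0.965 and 0.162 CPM in normal lung. Metastasis replicate 1 was the highest library of all and metastasis replicates 2 to 4 were the lowest (1.16 ± 1.62, adjusted p = 0.68). Leaving out a library moved its fold change between -1.84 and 1.94 on the log2 scale. The log2 ratio of Pfkm to Pfkl was 2.90, -9.45, -5.21, -6.44 and -2.33 in metastases, against 0.38, -0.04, 1.34, -0.71 and 0.24 in normal lung. The difference of -4.35 was not called by the exact permutation test (p = 0.0873, adjusted 0.296). Without metastasis replicate 1 it was -6.10 with an adjusted exact permutation p of 0.0317.

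The PFKFB enzymes make and break fructose 2,6-bisphosphate, the activator of phosphofructokinase, and were the only family whose tested members lay below 0, though not after scaling to the pan-endothelial genes. Pfkfb3, a known driver of endothelial glycolysis, had 33.9, 107, 25.3, 91.1 and 68.7 CPM in metastases, against 81.5, 166, 42.4, 83.1 and 127 CPM in normal lung. The groups overlapped (-0.62 ± 0.56, adjusted p = 0.493), and with the pan-endothelial scaling the value was 2.43. Pfkfb2 had 0.914, 12.2, 16.7, 10.5 and 20 CPM in metastases, against 39.3, 21.2, 40.2, 60.2 and 50 CPM in normal lung. It was the only uncalled member whose groups did not overlap. Its change of -1.80 ± 0.82 had an adjusted p of 0.127 in edgeR and passed in DESeq2 (-1.75, adjusted p = 0.0413), and it was 1.27 with the pan-endothelial scaling. About 25.1% of the 50-base windows of its transcript are shared with Gm29427, a gene on the same strand that overlaps it. Pfkfb3 held a median of 81.5% of the family's FPKM in metastases and 65.1% in normal lung, while Pfkfb2 held 6.7% in metastases and 30.2% in normal lung. Their log2 ratio differed by -1.58 between the groups, which was not called (exact permutation p = 0.111, adjusted 0.296).

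Pfkfb1 and Pfkfb4 were too low to be tested. Pfkfb1 had 0 to 0.61 CPM in metastases and 0.0782 to 6.12 CPM in normal lung. Pfkfb4 had 21.1 CPM in metastasis replicate 2 and at most 1.94 in the other metastasis libraries, against 4.58 CPM in normal lung replicate 2 and at most 0.162 in the other normal libraries.

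**Figure D3:**
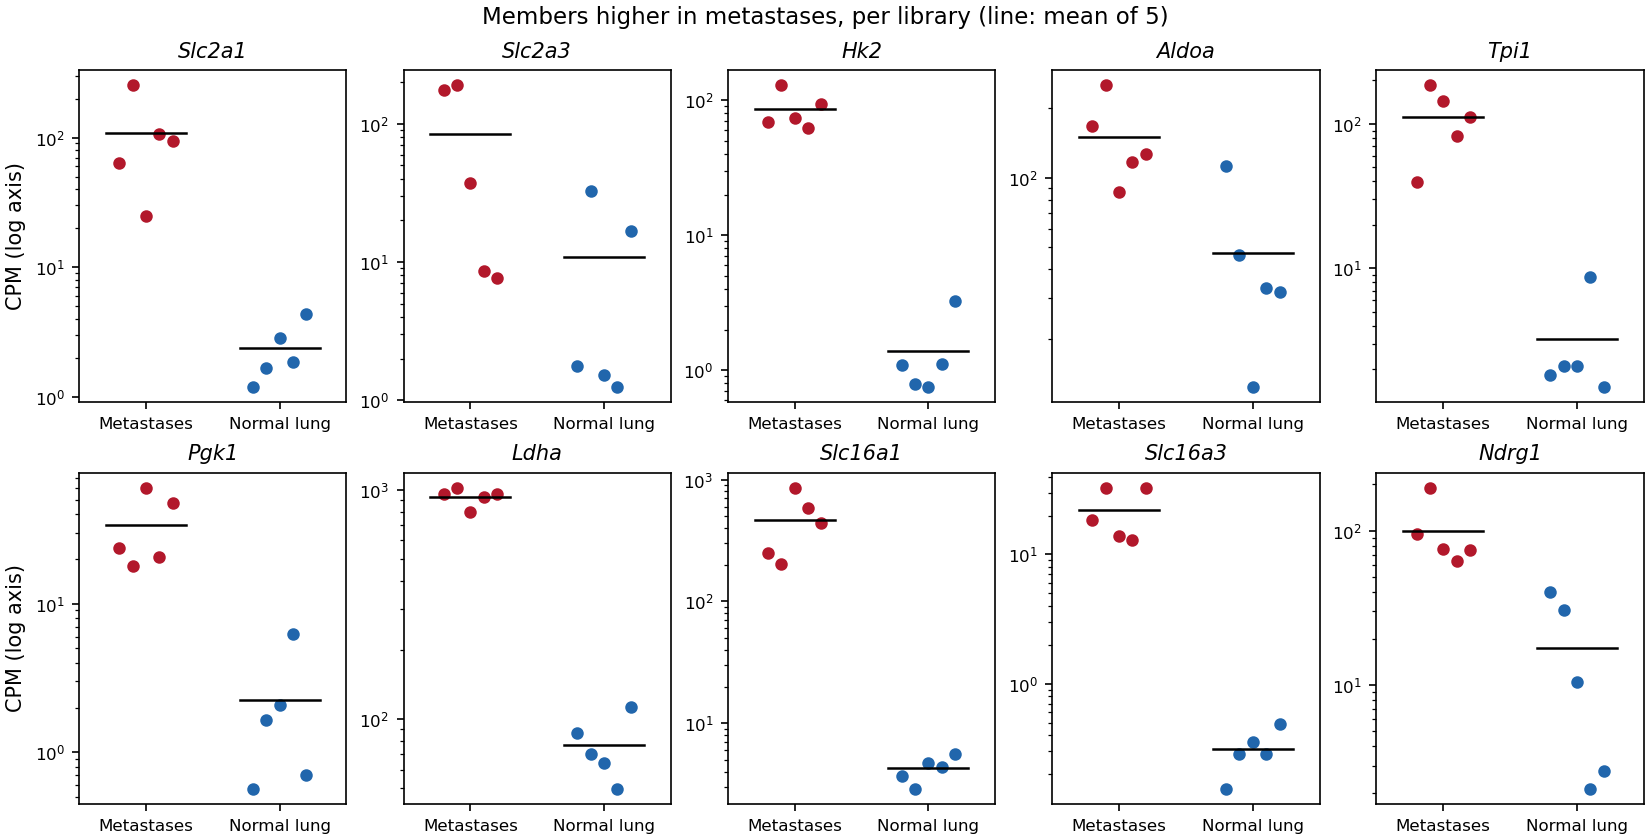
CPM per library on a log axis for the 10 members called higher in metastases (red, metastases; blue, normal lung; line, mean of 5 libraries). The groups are apart in 8 of the 10 panels, and Slc2a3 and Aldoa overlap.

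In the lower steps of the pathway 1 of 4 tested genes was called, against 20.2% of all tested genes. Pgk1 (chromosome X, 106187100 to 106203699, plus strand), phosphoglycerate kinase, had 23.8, 17.8, 60.4, 20.6 and 47.5 CPM in metastases, against 0.566, 1.64, 2.09, 6.21 and 0.702 CPM in normal lung. The groups did not overlap and the change was 15.2-fold (log2 3.92 ± 1.00, adjusted p = 0.00676). It was 4.25 over libraries 1 and 2 alone, where it was not called (adjusted p = 0.262). Pkm, the pyruvate kinase of most tissues, had 132, 295, 91.6, 119 and 151 CPM in metastases, against 159, 86.0, 18.8, 13.3 and 12.2 CPM in normal lung. Normal lung replicate 1 lay above 4 of 5 metastasis libraries (1.45 ± 0.65, adjusted p = 0.122). By FPKM the groups did not overlap, with 103, 139, 79.7, 87.0 and 107 in metastases, against 27.8, 36.0, 15.9, 9.69 and 8.01 in normal lung, and limma on log2(FPKM + 1) called Pkm at 2.53 (adjusted p = 0.000697). Without normal lung replicate 1 the change in counts was 2.24 (adjusted p = 0.0215), and over libraries 3 to 5 alone it was 3.02 (0.00847).

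Gapdh, often used as a constant control, was low for an enzyme of this pathway. It had 6.36, 24.4, 12.9, 9.03 and 12.9 CPM in metastases, against 16.6, 14.7, 0.635, 0.704 and 6.91 CPM in normal lung (0.73 ± 1.07, adjusted p = 0.693). The deposited FPKM told the groups apart where the counts did not: 7.23, 12.6, 13.1, 7.55 and 13.2 in metastases, against 1.08, 1.01, 0.481, 0.705 and 1.78 in normal lung. In limma on log2(FPKM + 1) Gapdh was called at 2.53 (adjusted p = 0.0022). Of the 50-base windows of its transcript 82.5% also occur in transcripts of other genes, 218 in number. For Pgk1 the share was 68.0% (5 other genes), for Pgam1 41.5% (4) and for Pkm 34.4% (8), so counts and FPKM of these genes are uncertain.

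Pgam1, phosphoglycerate mutase, was not called, with 0.298 to 32.5 CPM in metastases and 0.259 to 11.8 CPM in normal lung (0.89 ± 1.30, adjusted p = 0.693). Of the enolases, which make phosphoenolpyruvate, the members Eno1 and Eno2 did not have enough counts to be tested. Eno1, the enolase of most tissues, had 0 counts in 9 libraries and 1 count in normal lung replicate 2. A count of 0 allows up to 0.0459 to 0.149 CPM in metastases and 0.0459 to 0.081 CPM in the other 4 normal libraries, counting error only. Eno1 shares 72.2% of its 50-base windows with 9 other genes, and 10.5 to 13.63% of alignments in metastases and 9.37 to 11.14% in normal lung were set aside as not unique. How far this lowers its count was not tested. Eno2, known from neurons, had 19.1 CPM in metastasis replicate 2 and 0.106 to 0.248 in the other metastasis libraries, against 5.45 and 2.35 CPM in normal lung replicates 2 and 3 and 0.0782 to 0.324 in the rest. Outside the 37 genes, Eno3, known from muscle, and Eno1b were tested and not called (2.2 ± 1.49, adjusted p = 0.335, and 3.07 ± 1.58, 0.186). Counts and deposited FPKM disagreed in part: the log2 ratio of CPM to FPKM ranged over 3.39 to 5.03 between libraries for Hk3, Eno2, P4ha2, Pdk1, Car9, Gapdh, Eno1 and Ankrd37.

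The lactate carriers had the largest rises of the list. All 3 lactate genes that could be tested were called, against 20.2% of all tested genes. Ldha (chromosome 7, 46841475 to 46855627, plus strand), the subunit of lactate dehydrogenase that favours lactate, had 955, 1021, 798, 931 and 958 CPM in metastases, against 86.5, 70.2, 64.2, 49.3 and 113 CPM in normal lung. The metastasis libraries lay close together, and their pan-endothelial level ran from 6.26 to 35.2% of the normal mean. A relation of Ldha to that level was not tested. The change was 12.2-fold (log2 3.61 ± 0.38, adjusted p = 3.38e-07). By FPKM, Ldha was the highest member in every metastasis library, at 948, 711, 907, 922 and 929 in metastases, against 66.6, 57.6, 70.6, 59.9 and 117 in normal lung. By mean FPKM it ranked 22 of 24460 genes in metastases and 671 in normal lung. Ldhb, the subunit that favours pyruvate, had 5 counts in metastasis replicate 2 and 0 in the other 9 libraries, so Ldha made up 100% of the pair's FPKM in all of them.

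Slc16a1 (chromosome 3, 104638668 to 104658462, plus strand) encodes MCT1, which carries lactate either way. It had 249, 201, 859, 586 and 440 CPM in metastases, against 3.71, 2.88, 4.73, 4.41 and 5.56 CPM in normal lung. The normal libraries lay within a narrow range and every metastasis library was far above it, at 110-fold on average (log2 6.78 ± 0.54, adjusted p = 8.38e-09). Slc16a3 (chromosome 11, 120948480 to 120960868, plus strand) encodes MCT4, known for lactate export from glycolytic cells. It had 18.4, 32.9, 13.9, 12.9 and 32.9 CPM in metastases, against 0.153, 0.287, 0.353, 0.287 and 0.486 CPM in normal lung. Groups did not overlap, and the change was 70.5-fold (log2 6.14 ± 1.16, adjusted p = 0.000544). Over libraries 1 and 2 alone it was 6.86 and not called (adjusted p = 0.0804). The normal values rest on few counts, and 3 counts correspond to 0.0359 to 0.081 CPM there. The balance of both carriers did not move detectably: the log2 ratio of Slc16a3 to Slc16a1 differed by -0.53 (exact permutation p = 0.405, adjusted 0.54). Slc16a1 held a median of 76.0% of their FPKM sum in metastases and 67.7% in normal lung.

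Of the other carriers and partner proteins of lactate transport, 4 of 5 were tested, 1 was higher and 2 were lower. The shares over all tested genes were 12.0% higher and 8.22% lower. Emb, embigin, an ancillary membrane glycoprotein of monocarboxylate transporters, had 290, 412, 245, 642 and 530 CPM in metastases, against 3.74, 4.95, 4.85, 5.79 and 4.78 CPM in normal lung. Its rise (6.46 ± 0.50, adjusted p = 4.5e-09) was close in size to that of Slc16a1. Bsg, basigin, the usual chaperone of MCT1 and MCT4, had 3.49, 26.2, 277, 27.7 and 28.1 CPM in metastases, against 110, 92.9, 44.3, 22.7 and 70.5 CPM in normal lung. Metastasis replicate 3 was the highest and metastasis replicate 1 the lowest of the 10 libraries (0.09 ± 0.79, adjusted p = 0.956). Slc5a12, a sodium-coupled lactate carrier, fell to 54.7, 19.1, 93.1, 34.8 and 4.23 CPM in metastases, against 167, 65.0, 313, 101 and 265 CPM in normal lung (-2.15 ± 0.64, adjusted p = 0.0194). Slc16a7, which encodes MCT2, was lower at 0.0459 to 0.397 CPM in metastases, against 0.104 to 36.7 CPM in normal lung (-5.37 ± 1.70, adjusted p = 0.0265), with 1 normal library, replicate 3, holding the highest value. Normal replicates 1 and 4, at 0.138 and 0.104 CPM, lay within the metastasis range. Its median FPKM ran the other way, 0.0884 in metastases and 0.0585 in normal lung, while its mean FPKM was 0.103 and 3.01.

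**Figure D4:**
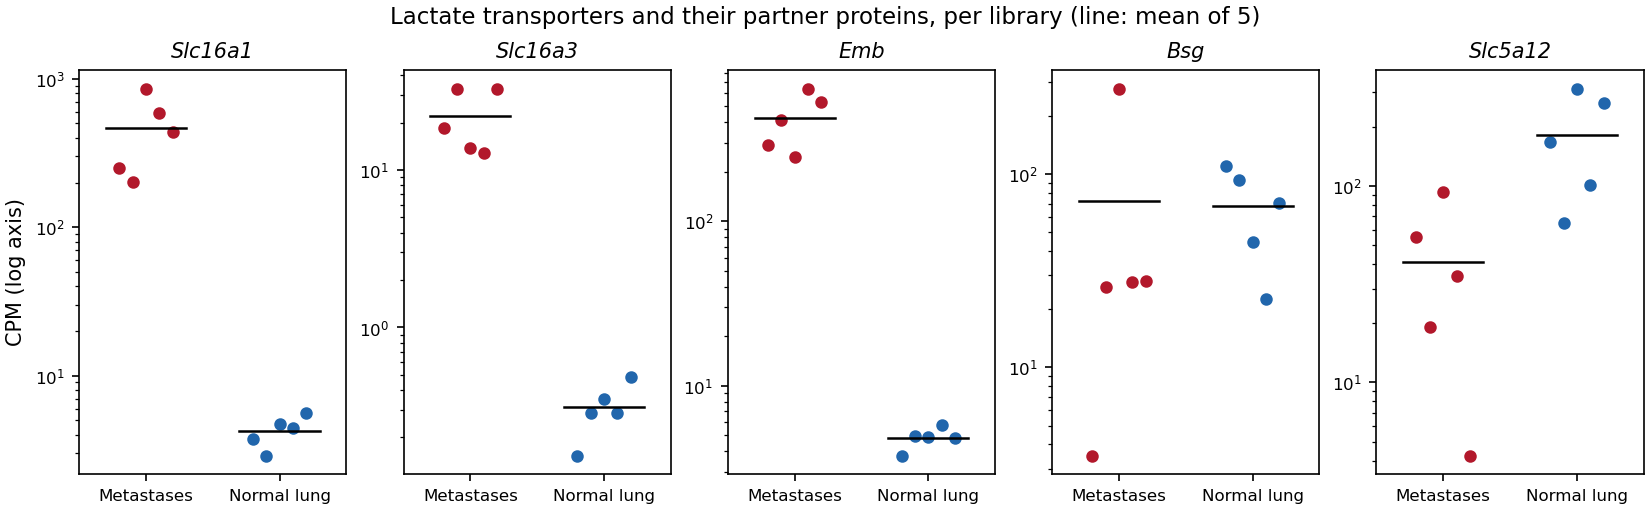
CPM per library on a log axis for the lactate carriers Slc16a1, Slc16a3 and Slc5a12 and the partner proteins Emb and Bsg (red, metastases; blue, normal lung; line, mean of 5 libraries). Slc16a1, Slc16a3 and Emb are apart, and Slc5a12 is lower in metastases. Bsg overlaps, at 3.49 to 277 CPM in metastases and 22.7 to 110 CPM in normal lung.

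The 11 hypoxia targets outside glycolysis had a median log2 fold change of 1.00 over 10 tested. Of these 1 was called higher and 0 lower, against 12.0% higher and 8.22% lower over all tested genes. With 10 genes, that count is close to the shares over all genes. Ndrg1 (chromosome 15, 66929318 to 66969640, minus strand), a stress-responsive gene and known HIF target, had 95.4, 191, 76.1, 63.9 and 74.7 CPM in metastases, against 40.3, 30.7, 10.4, 2.11 and 2.78 CPM in normal lung. Every metastasis library lay above every normal one, at 5.80-fold (log2 2.54 ± 0.76, adjusted p = 0.0197). The call was lost without metastasis replicate 2 (2.2, adjusted p = 0.0612) or normal replicate 3 (2.36, 0.0505), and over libraries 1 and 2 alone (2.03, 0.2). Pdk1, a kinase that shuts off pyruvate dehydrogenase, had 92.4, 5.34, 25.9, 27.0 and 33.2 CPM in metastases, against 8.04, 16, 3.46, 3.18 and 9.88 CPM in normal lung. By CPM, metastasis replicate 2 was the library within the normal range (2.18 ± 0.89, adjusted p = 0.0891), and without it Pdk1 was called at 2.47 (adjusted p = 0.0475). DESeq2 called it with all libraries (2.32, adjusted p = 0.00834), and limma on log2(FPKM + 1) did not (1.2, adjusted p = 0.238). By FPKM, metastasis replicates 2 and 3, at 0.731 and 0.156, lay within the normal range of 0.0933 to 2.93.

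Hilpda and Kdm3a were abundant in both groups. Hilpda, a lipid droplet protein that restrains lipolysis, had 7.55, 80.3, 118, 37.0 and 20.7 CPM in metastases, against 183, 94.5, 71.9, 52.1 and 67.6 CPM in normal lung (-0.83 ± 0.65, adjusted p = 0.413). Its mean FPKM was 85.8 in metastases and 135 in normal lung, the highest of all members in normal lung. Kdm3a, a histone demethylase, had 170, 118, 61.1, 267 and 153 CPM in metastases, against 224, 109, 225, 174 and 163 CPM in normal lung, with groups that overlapped fully (-0.22 ± 0.44, adjusted p = 0.778). With the pan-endothelial scaling these values turned positive, 1.98 for Hilpda and 2.81 for Kdm3a, against the 2.80 by which that scaling moved the median of all genes. With library totals Kdm3a was at 0.13.

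The remaining hypoxia targets overlapped between the groups. P4ha1 and P4ha2, the catalytic subunits that hydroxylate proline in collagen, had 16.6 to 93.3 and 1.24 to 43.9 CPM in metastases, against 7.40 to 75.0 and 0.447 to 18.4 CPM in normal lung (0.90 ± 0.73, adjusted p = 0.434, and 1.85 ± 1.09, 0.26). Mxi1, an antagonist of Myc, had 5.71 to 99.5 CPM in metastases and 11.2 to 44.7 CPM in normal lung (1.11 ± 0.74, adjusted p = 0.322). The other 3 tested targets were low in both groups. Bnip3, a receptor of mitophagy, had 33.9 CPM in metastasis replicate 3 and 0.881 to 5.03 in the others, against 0.565 to 11.1 CPM in normal lung (0.49 ± 1.23, adjusted p = 0.827). Ddit4, an inhibitor of mTORC1, had 0.677 to 12.3 CPM in metastases and 0.753 to 16.4 CPM in normal lung (0.01 ± 1.22, adjusted p = 0.998). Ankrd37 had 0.149 to 6.76 CPM in metastases and 0.0766 to 3.86 CPM in normal lung (1.10 ± 1.38, adjusted p = 0.64), and other genes overlap 26.4% of its exonic bases. Car9, a carbonic anhydrase widely used as a hypoxia marker, had 48 counts in metastasis replicate 5, 1 in normal lung replicate 5 and 0 in the other 8 libraries, and was not tested.

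Genes of neighbouring steps were mixed, where 12.0% of all tested genes were called higher and 8.22% lower. Of 18 other glycolysis and glucose transporter genes 9 were tested and 1 was called, Slc2a10, a member of the glucose transporter family, which was lower (0.143 ± 0.224 CPM in metastases and 5.70 ± 5.31 CPM in normal lung, SD, n = 5 each, adjusted p = 0.023). Of 14 tested genes of pyruvate fate 3 were higher and 1 was lower. Pdk3, an isoform of the same kinase family as Pdk1, averaged 21 ± 21.7 CPM in metastases and 0.892 ± 0.872 CPM in normal lung (4.55 ± 1.31, adjusted p = 0.015). Pdk2, another, averaged 1.59 ± 1.35 CPM in metastases and 38.2 ± 33.6 CPM in normal lung (-4.59 ± 1.04, adjusted p = 0.00265). Ldhc, the lactate dehydrogenase known from testis, rose by 5.13 on the log2 scale (13.8 ± 20.8 CPM in metastases and 0.387 ± 0.649 CPM in normal lung, adjusted p = 0.0243). Ldhc had 49.2 and 15.9 CPM in metastasis replicates 3 and 5 and 0.541 to 2.59 in the others, against 0.027 to 1.54 in normal lung. Dld, a subunit that pyruvate dehydrogenase shares with other complexes, rose by 1.72 (247 ± 127 CPM in metastases and 75.0 ± 43.4 CPM in normal lung, adjusted p = 0.0141). Of 8 pentose phosphate genes 1 was higher, G6pdx, the entry enzyme (66.3 ± 27.5 CPM in metastases and 10.4 ± 9.04 CPM in normal lung, 2.67 ± 0.77, adjusted p = 0.015). The CPM of the groups overlapped for Pdk3, Ldhc, Dld and G6pdx. For the other glycolysis genes (1 lower) and the pentose phosphate genes (1 higher) the counts were close to the shares over all tested genes.

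A wider list of 27 hypoxia targets outside the 37 genes had 23 tested members, of which 8 were higher and 2 were lower, with a median log2 fold change of 0.84. Over all tested genes 12.0% were higher and 8.22% lower, with a median of 0.06. Egln3, an oxygen-sensing prolyl hydroxylase, averaged 23.5 ± 17.0 CPM in metastases and 0.197 ± 0.0623 CPM in normal lung (6.88 ± 1.31, adjusted p = 0.000599). Car12, a membrane carbonic anhydrase, averaged 38.2 ± 23.1 CPM in metastases and 0.380 ± 0.221 CPM in normal lung (6.65 ± 1.12, adjusted p = 0.00018). Ak4, a mitochondrial adenylate kinase, averaged 16.6 ± 10.4 CPM in metastases and 0.185 ± 0.110 CPM in normal lung (6.48 ± 1.31, adjusted p = 0.00103). Vegfa, the growth factor of vessels and a classical HIF target, was lower, at 124 ± 69.4 CPM in metastases and 331 ± 85.4 CPM in normal lung (-1.42 ± 0.43, adjusted p = 0.021). Stc1, stanniocalcin, was lower too, at 5.03 ± 5.49 CPM in metastases and 46.5 ± 35.2 CPM in normal lung (-3.21 ± 1.01, adjusted p = 0.0264). The called genes of this list lay in both directions.

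Hk2, Ldha, Slc16a1, Slc2a1 and Tpi1 were called in every setting that was run. Pgk1 and Slc16a3 were called in all but libraries 1 and 2 alone.

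**Figure D5:**
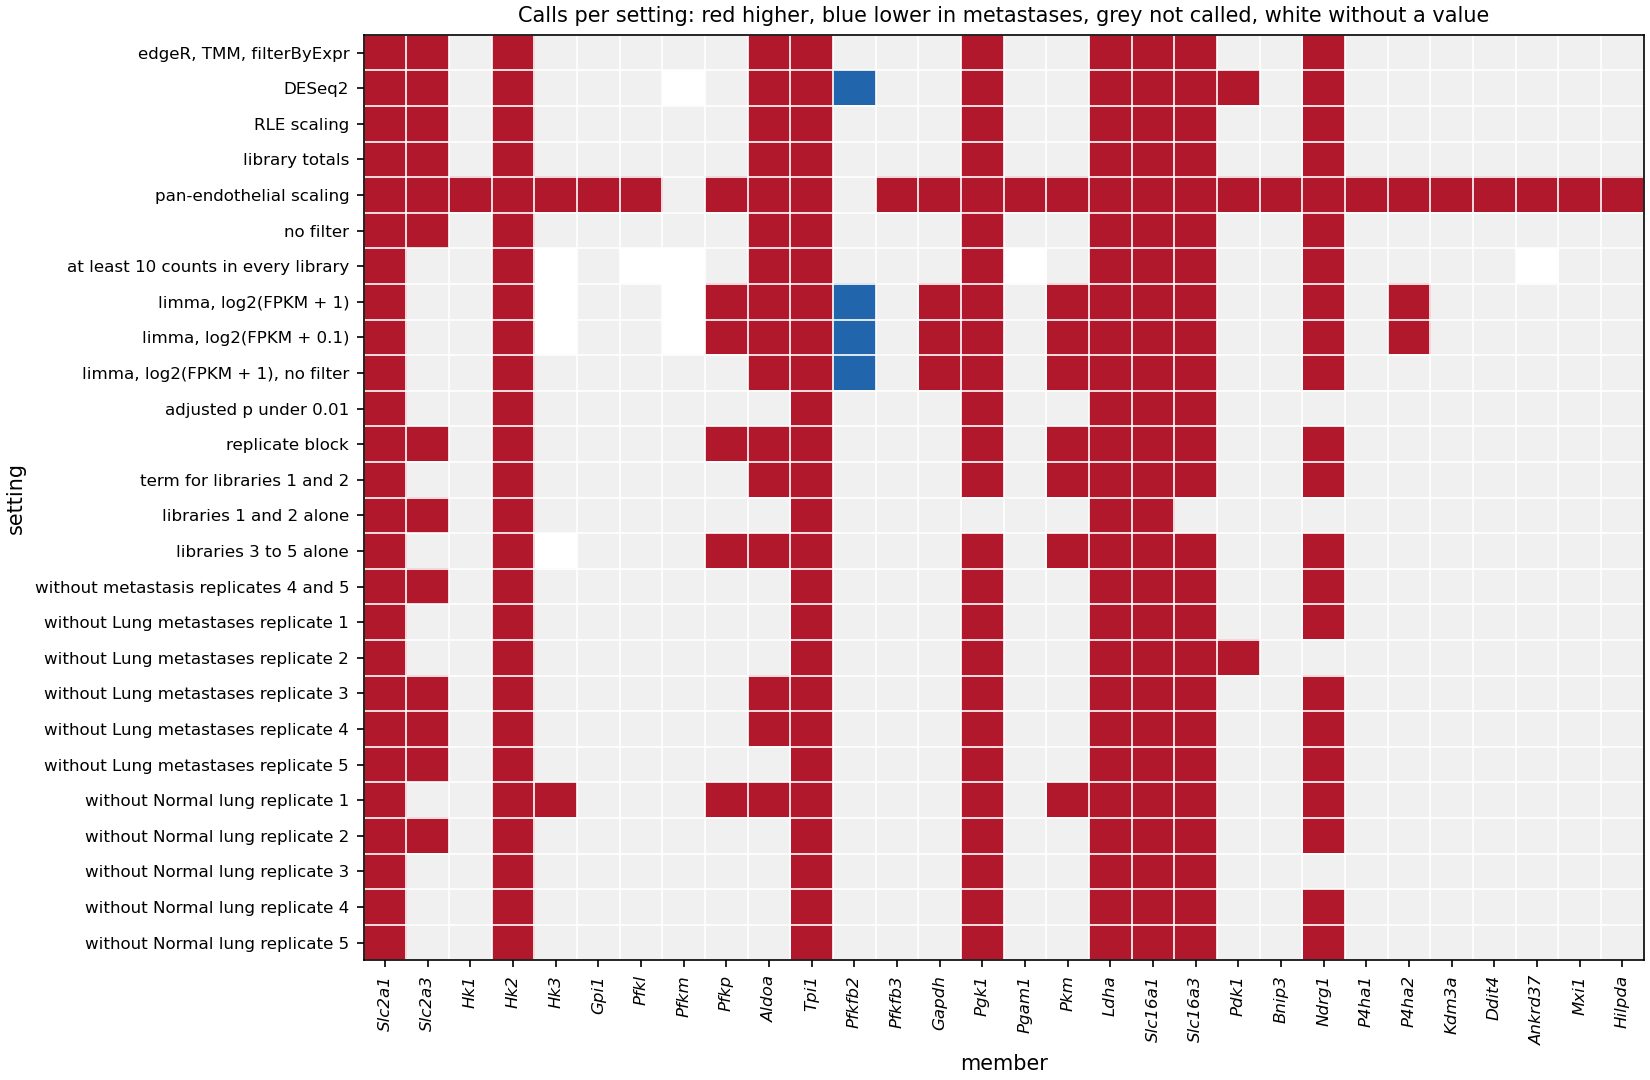
Calls of the 30 tested members (columns) under each setting (rows); red is higher in metastases, blue lower, grey not called and white without a value. Slc2a1, Hk2, Tpi1, Ldha and Slc16a1 are red in every row. Scaling to the pan-endothelial genes calls 28 members higher, and 61.6% of all tested genes.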

How the data were processed

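The authors deposited raw counts per gene for each of the 10 libraries and a table of FPKM, fragments scaled by length and depth, for 24460 genes. Per the labels, cells were sorted, RNA was amplified (Ovation RNA-Seq V2) and paired 100 bp reads were sequenced. Tools named in the submitters' processing notes are TopHat2 2.0.13, Cufflinks 2.2.1, DESeq2 1.6.3 and HTSeq 0.6.1, with the builds mm10 and GRCm38. Neither annotation nor strand setting is given in the sources used here, and overlapping and antisense genes are therefore uncertain. No file was left out.

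Counts were fitted in R 4.3.3 with edgeR 4.0.16 (filterByExpr, TMM, quasi-likelihood F test, two-sided, no covariate), with Benjamini-Hochberg adjustment over 11823 tested genes. Called means an adjusted p under 0.05. The common coefficient of biological variation was 1.01. CPM are on TMM-scaled libraries, means are given ± SD (n = 5 per group), and SE is the size of the log2 fold change divided by the root of F. Isoform ratios within a library were compared by a two-sided exact permutation test, with 0.5 added to each count. FPKM was used for levels between genes. Alternatives used DESeq2 1.42.0, limma 3.58.1 on log2(FPKM + 1) or log2(FPKM + 0.1), other scalings, filters and libraries, a replicate block, and leaving out each library. The fits were tested on simulated data. Limits from counts cover counting error only.

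Members and lists were chosen with earlier results of these data known. All members are accounted for; of the other lists, called genes are named, at most the 3 of largest change each way. Nothing says that replicates of normal lung came from separate animals, so p-values measure the spread between these samples. Deviations of same-numbered libraries of the groups had correlations of 0.00 to 0.14, and those of other pairs -0.12 to 0.10. Such a check cannot exclude a shared day or batch. The main fit did not pair samples. Positions and the share of 50-base windows that a gene's transcript has in common with other genes are from GENCODE M21 (GRCm38), which may not be the authors' annotation. Figures used matplotlib 3.10.9.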

Additional observations from a re-analysis of the deposited data

Results flagged for a closer look

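In all, 76 groups of 5 libraries were looked at, tested members on log2(CPM + 0.1) and isoform pairs on their log2 count ratio. Of these, 4 had a library that stood apart, the gap to its nearest neighbour taking more than 0.71 of the group's range. All 4 were groups of members and none was of a ratio. Chance alone marks about 1 in 20 such groups. Hk2 had 3.24 CPM in normal lung replicate 5, above the other normal libraries (0.74 of the range), and this value lay far below all metastasis libraries. Tpi1 had 8.71 CPM in normal lung replicate 4, above the other normal libraries (0.81) and below all metastasis libraries. Hk3 had 4.0 CPM in normal lung replicate 1 (0.87), while the deposited FPKM of that library was 0.0329. Pfkfb2 had 0.914 CPM in metastasis replicate 1, below the other metastasis libraries (0.79).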

How the results depend on the processing

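Among the values of single members under all alternatives, 641 kept their direction and side of the threshold, 39 passed it newly, 29 lost it and 30 changed sign, all of them of members not called here. Scaling to the pan-endothelial genes, which raises all genes by its construction, turned Pfkfb2 to 1.27, Pfkfb3 to 2.43, Kdm3a to 2.81 and Hilpda to 1.98, and library totals turned Kdm3a to 0.13. Libraries 1 and 2 alone turned Gapdh to -0.01, Pgam1 to -0.39, Bnip3 to -1.39 and Ddit4 to -0.59, and libraries 3 to 5 alone turned Hk1 to -0.58 and Pfkm to -0.38. Ddit4 was -0.05 with no filter, -0.15, -0.24 and -0.15 in the limma fits on FPKM, and -0.30 without metastasis replicates 4 and 5, which turned Pgam1 to -0.74. When each library was left out in turn, Hk1 lay between -0.15 and 0.74, Pfkm between -1.84 and 1.94, Pgam1 between -0.46 and 1.43, Bnip3 between -1.49 and 0.8 and Ddit4 between -0.44 and 0.86. Scaling to the pan-endothelial genes gave 28 members higher, and 7282 genes higher and 18 lower of all tested. The threshold of 0.01 gave 869 genes higher and 453 lower, libraries 1 and 2 alone 6 members higher with 487 genes higher and 201 lower, and leaving out metastasis replicates 4 and 5 527 genes lower. DESeq2 and the 3 limma fits on FPKM called 1 member lower, Pfkfb2. Leaving out each library in turn gave 7 to 12 members higher, 0 to 0 lower, and 1302 to 1440 genes higher and 792 to 1114 lower. It moved the difference in the Hk2 to Hk1 ratio between 5.46 and 6.49 and that of Pfkm to Pfkl between -6.10 and -3.01. Where a call changed, the cause was not tested.

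With the replicate block 12 members were higher, Pfkp and Pkm being added, 1435 genes were higher and 1180 lower, and Pfkm (-2.68), Bnip3 (-1.03) and Hk1 (-0.01) turned negative. For isoform ratios the block over 5 pairs cannot give an exact p under 0.0625, so it is no test of them. Correlations between same-numbered libraries reached at most 0.14, and whether they shared a day or batch is not known. Depth limits the lowest genes: 3 counts correspond to 0.0459 to 0.149 CPM in metastases and 0.0359 to 0.081 CPM in normal lung.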
